A study of Mus musculus with 10 samples.

Results

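The Treg/non-Treg difference was compared between WT and SATB1-deficient (KO) mice. For each gene the difference in log2 CPM (counts scaled to library size) between FoxP3+CD25+ cells and FoxP3-CD25- cells was taken in each mouse. The KO minus WT value of that difference was estimated by a model fitted to the counts in edgeR. It therefore need not equal the mean per-mouse difference in KO minus that in WT. This contrast used 8 of the 10 libraries of the series, and 13661 of the 48321 gene symbols had enough counts to be tested. A negative value means that Tregs stood less far above, or further below, non-Treg cells in KO than in WT.

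RNA-seq had been done on CD4+ T cells from the spleen of C57BL/6 mice that were sorted by CD25 and by Gfp that reports Foxp3. The WT group held 2 mice, and the KO group held 2 Satb1 F/F; Thpok-cre mice, in which floxed Satb1 is deleted by a Cre driven by the Thpok gene, a factor of the CD4 lineage. Conventional T cells and Tregs both pass through that lineage step, and how far Satb1 was deleted in each population was not tested here. Each mouse gave a FoxP3+CD25+ library (Treg) and a FoxP3-CD25- library (non-Treg), and the FoxP3+CD25- libraries of the KO mice were not used here. The study's methods describe its mice in general as adults of both sexes, and whether the WT mice carried a floxed allele or the Cre was not given in the sources used here. Libraries with the same genotype and number in their labels (WT1, WT2, KO1 and KO2) were read as the same mouse.

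Tregs are CD4+ T cells that hold other immune cells in check, and FoxP3 is the transcription factor that defines them. FoxP3 keeps some genes of naive T cells low, Satb1 and Pde3b among those known, while CD25, CTLA4, Helios and neuropilin-1 are well-known products of the Treg programme. SATB1 is a nuclear protein that folds and organises chromatin in T cells, and it is needed as thymocytes turn on lineage genes. Effector or memory T cells of either kind raise adhesion and homing molecules such as CD44 and CXCR3, so a gene can mark Tregs against naive cells and also mark activated non-Treg cells.

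The contrast was first checked on Satb1 itself. Satb1 was 809.8 and 879 CPM in non-Treg cells of WT1 and WT2, 839.7 and 683 CPM in those of KO1 and KO2, 382 and 477 CPM in Tregs of WT1 and WT2 and 600.0 and 536 CPM in Tregs of KO1 and KO2. In Tregs Satb1 was thus higher in both KO libraries than in both WT ones. Among non-Treg cells KO1 lay between the WT libraries and KO2 lay below both. Counts over the whole gene do not show whether a floxed exon was lost, so they checked neither the deletion nor the label. The Satb1 difference between the populations was -1.08 and -0.88 in WT and -0.48 and -0.35 in KO, with a KO minus WT value of 0.56 ± 0.13 (SE), adjusted p = 0.162, which did not pass the threshold.

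Foxp3 and Il2ra, which encodes CD25, separated the populations in all 4 mice, as the sort on a Foxp3 reporter and CD25 requires. Foxp3 was 18.5 and 17.9 CPM in non-Treg cells of WT1 and WT2, 38.8 and 19.5 CPM in those of KO1 and KO2, 722 and 618 CPM in Tregs of WT1 and WT2 and 742 and 649.5 CPM in Tregs of KO1 and KO2. Its level in the KO1 non-Treg library was the highest of the 4 non-Treg libraries, and so was that of Il2ra, which was 3.53 and 1.54 CPM in non-Treg cells of WT1 and WT2, 11.4 and 5.41 CPM in those of KO1 and KO2, 664 and 760.1 CPM in Tregs of WT1 and WT2 and 629 and 682 CPM in Tregs of KO1 and KO2. Among the 8 libraries the CD4 T-cell markers summed to 7200 to 9800 CPM. The 20 B-cell markers summed to 234 to 673 CPM and were higher in the Treg library of each mouse, the 24 myeloid and dendritic markers summed to 81.1 to 160.0 CPM, the 15 CD8, NK and gamma-delta markers to 25.4 to 57.5 CPM, and the 12 red cell and platelet markers to 3.53 to 8.27 CPM. Of the defining genes of those cells, Pf4 was at 0 in every library, Ms4a1 was at 0 to 0.766 CPM and Lyz2 was at 0 to 1.53 CPM, while the delta-chain gene Trdc was at 7.87 to 22.6 CPM. Other genes of the B-cell list were higher. Cd74, the invariant chain of MHC class II, was 2.05 and 2.06 CPM in non-Treg cells of WT1 and WT2, 4.95 and 4.75 CPM in those of KO1 and KO2, 57.6 and 30.6 CPM in Tregs of WT1 and WT2 and 31.7 and 37.5 CPM in Tregs of KO1 and KO2, with a KO minus WT value of -1.57 ± 0.35 (SE), adjusted p = 0.137. Cd79b, a chain of the B-cell receptor, was 1.39 and 0.824 CPM in non-Treg cells of WT1 and WT2, 5.12 and 3.16 CPM in those of KO1 and KO2, 19.2 and 14.6 CPM in Tregs of WT1 and WT2 and 14.7 and 14.5 CPM in Tregs of KO1 and KO2, with a value of -2.06 ± 0.43 (SE), adjusted p = 0.115. Both stood higher in Tregs in every mouse and higher in KO than in WT among non-Treg cells, as many of the genes below did. Of the 7 B-cell markers tested 6 were below 0 (median -0.335) and none was called in edgeR's quasi-likelihood test, by DESeq2 or by limma voom. In the edgeR test 2 of the 7 had an unadjusted p under 0.05, against 1124 of all 13661 genes tested. The part of other cells in the results below was not tested. Counts on genes ran from 6094952 to 12410064 per library, so that 3 counts stood for 0.242 to 0.492 CPM. WT1 alone had Xist counts, 14487 and 16362, and no Y-linked counts, and the other 3 mice had at most 4 Xist counts and 3039 to 4750 Y-linked counts in each library.

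The Treg/non-Treg difference was smaller or more negative in KO for 62 genes and larger or less negative for 4, at an adjusted p under 0.05 in edgeR's quasi-likelihood test with a term for each mouse. These were 0.454% and 0.0293% of the 13661 genes, 0.483% together. The per-mouse differences of the 62 genes were lower in both KO mice than in both WT mice, as they were for 20.5% of all genes tested, and those of the 4 genes were higher, as they were for 17.5%. The test has 2 residual degrees of freedom beside 6.81 that the genes lend each other, and an exact two-sided permutation of 2 against 2 mice cannot go below p = 0.333. The calls depended on the mice: without the mouse terms there were 0 calls, with 633 genes at an unadjusted p under 0.05, against 1124 with those terms. Leaving out WT1 gave 573 calls, WT2 2347, KO1 11 and KO2 0, and all 66 genes kept their direction each time. Without the filter on low counts 27212 genes were tested and 0 were called, with the 66 genes at an adjusted p of 0.0889 to 0.228. Each fold change below is a KO minus WT value on the log2 scale with its standard error over 2 mice per genotype, and its adjusted p is from the same test. Nothing in the labels says more of how the mice relate, so these p-values measure the spread between these 4 mice. In sorted bulk cells more cells of a type and more RNA per cell cannot be told apart.

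The 62 genes included Ikzf2 and Nrp1 of Treg identity, Cxcr3, Ccr4, Cd44 and Itgb1 of homing and adhesion, Cxcr5 and Tox2 of follicular help and Mki67 of cell division. Averaged over the 4 mice, 51 of them were higher in Tregs than in non-Treg cells. Over the 62 genes the median difference was 1.40 in WT and 0.060 in KO. By a threshold of 0.5 on the log2 scale, 29 of the 62 had a difference in WT that was gone in KO, 20 had a narrower one, 7 turned over from higher in Treg to lower in Treg, 5 showed a difference in KO only, and 1 had a wider one in KO. The plot of CPM by mouse shows 8 of the 66 genes, some with the larger gap between genotypes in Tregs and some in non-Treg cells.

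**Figure D1:**
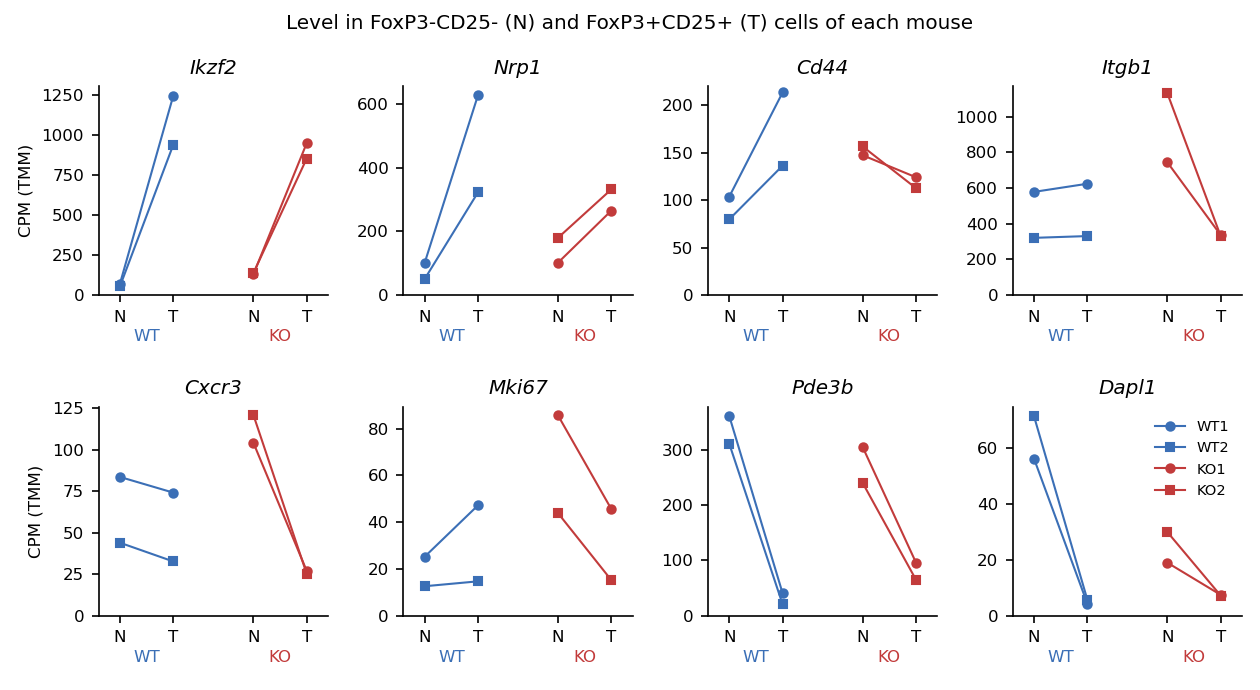
CPM (vertical axis, from 0, TMM-scaled) of 8 genes in FoxP3-CD25- (N) and FoxP3+CD25+ (T) cells, with each line joining the libraries of 1 mouse (blue WT, red KO, circles mouse 1, squares mouse 2). Ikzf2 and Nrp1 rise from N to T in all 4 mice, Cd44 rises in WT and falls in KO, Itgb1 is flat in WT and falls in KO, and Pde3b and Dapl1 fall less far in KO.

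Of the Treg identity genes, Ikzf2 and Nrp1 differed less between Tregs and non-Treg cells in KO. Ikzf2 (chr1:69531214-69687245, mm10) encodes Helios, an Ikaros-family factor abundant in Tregs. It was 71.8 and 55.0 CPM in non-Treg cells of WT1 and WT2, 129 and 136 CPM in those of KO1 and KO2, 1246 and 939 CPM in Tregs of WT1 and WT2 and 948 and 852 CPM in Tregs of KO1 and KO2. Both KO non-Treg libraries lay above both WT ones, while the Treg libraries overlapped in range between WT2 and KO1. The difference was 4.11 and 4.09 in WT and 2.88 and 2.64 in KO, so Helios mRNA was higher in Tregs in every mouse and by less in KO, with a KO minus WT value of -1.34 ± 0.13 (SE), adjusted p = 0.0149.

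Nrp1 (chr8:128358604-128503363) encodes neuropilin-1, a co-receptor for semaphorins and growth factors that is common on thymus-derived Tregs. Nrp1 was 101 and 50.4 CPM in non-Treg cells of WT1 and WT2, 102 and 179.7 CPM in those of KO1 and KO2, 628 and 323 CPM in Tregs of WT1 and WT2 and 265 and 332 CPM in Tregs of KO1 and KO2. WT1 stood highest among the Treg libraries and the other 3 were close to each other, and KO2 stood highest among the non-Treg libraries. The difference per mouse was 2.63 and 2.67 in WT and 1.38 and 0.88 in KO, a change of -1.53 ± 0.17 (SE), adjusted p = 0.0149.

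Of the 30 Treg identity genes tested, these were the 2 called, both lower in KO, and none was called higher. This list and those below were chosen with earlier results of these data known, so their counts and medians only describe them. Over all genes tested 0.454% were called lower and 0.0293% higher, and 6812 of 13661 had a value below 0. The median over the list was -0.821, beside 0.000714 over all genes, and 27 of the 30 had a value below 0. The list's median difference was 3.30 in WT1 and 3.37 in WT2 against 2.80 in KO1 and 2.57 in KO2, so Treg genes stood high in all 4 mice. Below the threshold lay the inhibitory receptor genes Tigit at -1.63 ± 0.35 (SE), adjusted p = 0.120 and Ctla4 at -0.79 ± 0.18 (SE), adjusted p = 0.131, and the costimulatory receptor gene Icos at -0.82 ± 0.18 (SE), adjusted p = 0.131. Foxp3 gave -0.56 ± 0.23 (SE), adjusted p = 0.569 and Il2ra -1.75 ± 0.45 (SE), adjusted p = 0.214, both with the sort in their level. Leaving out 1 mouse moved the Foxp3 value from -0.93 without KO2 to -0.14 without KO1 and the Il2ra value from -2.60 without WT1 to -1.13 without KO1. It moved Ctla4 from -1.08 to -0.50, without WT1 and without WT2, and Tigit from -2.17 to -1.02, without WT2 and without WT1. Ikzf4, which encodes the Helios relative Eos, gave 0.13 ± 0.19 (SE), adjusted p = 0.918, and its per-mouse values of 3.92 and 4.04 in WT and 3.84 and 4.37 in KO overlapped between genotypes. Lrrc32, which encodes the TGF-beta docking receptor GARP, had under 3 counts in 3 of the 4 non-Treg libraries, among them both of WT. Its value of -2.28 ± 1.23 (SE), adjusted p = 0.694 therefore depends on the prior count of the fit and is no bound. Cd83, a surface molecule of activated lymphocytes and Tregs, gave -0.84 ± 0.27 (SE), adjusted p = 0.360, and ran from -1.19 without KO1 to -0.37 without KO2.

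Of the 4 genes called higher in KO, 3 were lower in Tregs on average, as were 6 of the 62 called lower, at an adjusted p under 0.05 in edgeR's quasi-likelihood test. Pde3b (chr7:114415281-114539251) encodes a phosphodiesterase that breaks down cAMP, and its repression is a known mark of FoxP3 activity. It was 360.2 and 310.3 CPM in non-Treg cells of WT1 and WT2, 305 and 239.9 CPM in those of KO1 and KO2, 40.4 and 20.5 CPM in Tregs of WT1 and WT2 and 96.0 and 65.2 CPM in Tregs of KO1 and KO2. Both KO Treg libraries lay above both WT ones, and the non-Treg libraries of KO lay below those of WT. The difference was -3.15 and -3.90 in WT and -1.66 and -1.88 in KO, so Pde3b stayed lower in Tregs in every mouse, with a change of 1.75 ± 0.22 (SE), adjusted p = 0.0193. It was the 1 called among 28 phosphodiesterase, adenylate cyclase and cAMP target genes, whose median was -0.076. Over all genes tested 0.0293% were called higher.

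Dapl1 (chr2:59484653-59505020), a gene expressed in naive T cells, came to the same direction by another path. It was 56.1 and 71.3 CPM in non-Treg cells of WT1 and WT2, 19.0 and 29.9 CPM in those of KO1 and KO2, 4.39 and 5.79 CPM in Tregs of WT1 and WT2 and 7.50 and 7.24 CPM in Tregs of KO1 and KO2. The larger gap between genotypes was in non-Treg cells, where both KO libraries were lower than both WT ones. The difference was -3.61 and -3.57 in WT and -1.31 and -2.01 in KO, a change of 1.92 ± 0.29 (SE), adjusted p = 0.0291.

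The list of genes that FoxP3 represses or that mark naive T cells had 29 members tested, of which these 2 were called higher and 0 lower. Its median was 0.243, and 22 of 29 were above 0. Over all genes tested 0.0293% were called higher, 6849 of 13661 were above 0 and the median was 0.000714. Lef1, a transcription factor of naive T cells and the Wnt pathway, was 643 and 653 CPM in non-Treg cells of WT1 and WT2, 545 and 454 CPM in those of KO1 and KO2, 191 and 226 CPM in Tregs of WT1 and WT2 and 305 and 237 CPM in Tregs of KO1 and KO2, and its value of 0.75 ± 0.13 (SE), adjusted p = 0.0557 missed the threshold. Vipr1, a neuropeptide receptor gene, gave 0.82 ± 0.16 (SE), adjusted p = 0.0789, and Tcf7, the partner of Lef1, gave -0.031 ± 0.13 (SE), adjusted p = 0.979. None of 23 genes of the Wnt pathway and its TCF partners was called in edgeR's quasi-likelihood test, 0 by DESeq2 and 1 by limma voom, and their median was -0.031. In the edgeR test 5 of the 23 had an unadjusted p under 0.05, against 1124 of all 13661 genes tested.

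The other 2 genes called higher have uncertain counts. Rps15a-ps4 (chr4:132219988-132220489) is a processed pseudogene of the ribosomal protein gene Rps15a, with which it can share reads. It was 103 and 23.4 CPM in non-Treg cells of WT1 and WT2, 37.1 and 48.5 CPM in those of KO1 and KO2, 46.9 and 12.5 CPM in Tregs of WT1 and WT2 and 64.2 and 70.3 CPM in Tregs of KO1 and KO2, with a value of 1.69 ± 0.17 (SE), adjusted p = 0.0149. Gm43352 (chr3:131109026-131112090) is annotated antisense to Lef1. The libraries were unstranded, so where the genes overlap its reads cannot be told apart from those of Lef1, and the strand setting of the counting is not known. Its value was 1.14 ± 0.18 (SE), adjusted p = 0.0406, from per-mouse differences of -2.41 and -2.55 in WT and -1.16 and -1.57 in KO.

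Effector Treg genes were called lower in 6 of 40 tested (15%) and higher in 0, beside 0.454% of all genes called lower. Since the list was chosen with earlier results of these data known, this share describes it and was not tested. The 6 were Cxcr3, Ahnak, Cd44, Itgb1, Maf and Ccr4, and 36 of the 40 had a value below 0, with a median of -0.987. In 28 of the 40 both KO mice lay below both WT mice, as in 20.5% of all genes tested. The list's median difference was 1.02 and 0.86 in WT and 0.19 and -0.13 in KO.

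Cxcr3 (chrX:101731535-101734269) encodes the chemokine receptor of type 1 helper cells and of Tregs that follow them into inflamed tissue. It was 83.5 and 44.0 CPM in non-Treg cells of WT1 and WT2, 104 and 121 CPM in those of KO1 and KO2, 74.1 and 32.7 CPM in Tregs of WT1 and WT2 and 27.1 and 25.4 CPM in Tregs of KO1 and KO2. KO was above WT in non-Treg cells and below it in Tregs, with no overlap in either. The difference was -0.17 and -0.42 in WT and -1.93 and -2.24 in KO, close to 0 in WT and well below it in KO, a change of -1.81 ± 0.17 (SE), adjusted p = 0.0149 and the lowest p of all genes tested.

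Ccr4, a receptor for homing to skin and other tissues, was 10.4 and 8.86 CPM in non-Treg cells of WT1 and WT2, 34.0 and 29.9 CPM in those of KO1 and KO2, 67.6 and 29.2 CPM in Tregs of WT1 and WT2 and 42.6 and 35.4 CPM in Tregs of KO1 and KO2. The Treg libraries overlapped between genotypes and the non-Treg libraries did not. Its difference was 2.67 and 1.69 in WT and 0.32 and 0.24 in KO (-1.97 ± 0.29 SE, adjusted p = 0.0270). Cxcr5, the receptor that leads cells into B-cell follicles, joined Cxcr3 and Ccr4 as the 3 called among 24 chemokine and lipid homing receptors. All were lower, beside 0.454% of all genes called lower, and the list median was -0.930.

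Cd44 (chr2:102811141-102901665) encodes the hyaluronan receptor that is high on activated and memory T cells. It was 104 and 79.9 CPM in non-Treg cells of WT1 and WT2, 147 and 157 CPM in those of KO1 and KO2, 214 and 137 CPM in Tregs of WT1 and WT2 and 124 and 113 CPM in Tregs of KO1 and KO2. The difference was 1.04 and 0.77 in WT and -0.25 and -0.47 in KO, so Cd44 was higher in Tregs in both WT mice and lower in Tregs in both KO mice (-1.27 ± 0.15 SE, adjusted p = 0.0149). Itgb1 (chr8:128685654-128733200), the beta-1 integrin chain, differed from Cd44 in having no difference between the populations of WT.

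Itgb1 was 578 and 320.5 CPM in non-Treg cells of WT1 and WT2, 744 and 1131 CPM in those of KO1 and KO2, 624 and 330.4 CPM in Tregs of WT1 and WT2 and 336 and 331 CPM in Tregs of KO1 and KO2. In WT the populations were level with each other in each mouse, and in KO the non-Treg cells held more. The value was -1.54 ± 0.19 (SE), adjusted p = 0.0193. Alcam, an adhesion molecule that binds CD6, gave -1.70 ± 0.25 (SE), adjusted p = 0.0255, from 1.95 and 1.68 in WT and 0.28 and 0.076 in KO. Cd44, Itgb1 and Alcam were the 3 called of 25 integrin and adhesion genes, whose median was -0.200, and none was called higher. This stands beside 0.454% of all genes called lower, and Cd44 and Itgb1 are also in the effector Treg list.

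Ahnak, a very large scaffold protein under the plasma membrane, was 639 and 384 CPM in non-Treg cells of WT1 and WT2, 948 and 1096 CPM in those of KO1 and KO2, 1346 and 781 CPM in Tregs of WT1 and WT2 and 836 and 807 CPM in Tregs of KO1 and KO2. Its difference was 1.07 and 1.02 in WT and -0.18 and -0.44 in KO, positive in WT and negative in KO (-1.36 ± 0.14 SE, adjusted p = 0.0149). Maf, a transcription factor of IL-10-producing and follicular T cells, was chosen for mention after its values were seen. The difference was 1.63 and 1.17 in WT and 0.18 and -0.38 in KO, a change of -1.51 ± 0.21 (SE), adjusted p = 0.0239.

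Follicular helper genes gave 5 calls of 19 tested, all lower in KO, with a median of -1.05 and 18 of 19 below 0. Over all genes 0.454% were called lower and 6812 of 13661 were below 0. Cxcr5 was 35.9 and 34.1 CPM in non-Treg cells of WT1 and WT2, 49.7 and 74.5 CPM in those of KO1 and KO2, 53.2 and 47.4 CPM in Tregs of WT1 and WT2 and 24.7 and 38.8 CPM in Tregs of KO1 and KO2. In WT it was a little higher in Tregs and in KO higher in non-Treg cells, with differences of 0.56 and 0.47 in WT and -1.0 and -0.94 in KO and a change of -1.49 ± 0.16 (SE), adjusted p = 0.0149. Tox2, an HMG-box factor of follicular helper cells, turned over in the same way. Its levels were 17.5 and 13.1 CPM in non-Treg cells of WT1 and WT2, 43.8 and 36.1 CPM in those of KO1 and KO2, 50.0 and 22.4 CPM in Tregs of WT1 and WT2 and 23 and 15.8 CPM in Tregs of KO1 and KO2, with a value of -2.24 ± 0.27 (SE), adjusted p = 0.0149.

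Gpm6b, a membrane glycoprotein, was 92.4 and 52.8 CPM in non-Treg cells of WT1 and WT2, 64.9 and 182 CPM in those of KO1 and KO2, 79.5 and 32.4 CPM in Tregs of WT1 and WT2 and 15.8 and 32.4 CPM in Tregs of KO1 and KO2. Its KO1 library of non-Treg cells lay within the WT range and KO2 above it, while the difference within each mouse separated the genotypes at -0.22 and -0.70 in WT and -2.02 and -2.49 in KO (-1.85 ± 0.22 SE, adjusted p = 0.0149). P2rx7, the ATP-gated channel that makes Tregs and follicular cells sensitive to extracellular nucleotides, had per-mouse differences of 2.07 and 2.14 in WT and 0.98 and 1.14 in KO (-1.05 ± 0.13 SE, adjusted p = 0.0182). Maf was the fifth member called. Pdcd1, the gene of the inhibitory receptor PD-1, was 34.8 and 33.4 CPM in non-Treg cells of WT1 and WT2, 60.9 and 73.8 CPM in those of KO1 and KO2, 97.3 and 64.4 CPM in Tregs of WT1 and WT2 and 72.0 and 71.6 CPM in Tregs of KO1 and KO2, and its -1.13 ± 0.20 (SE), adjusted p = 0.0624 missed the threshold.

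**Figure D2:**
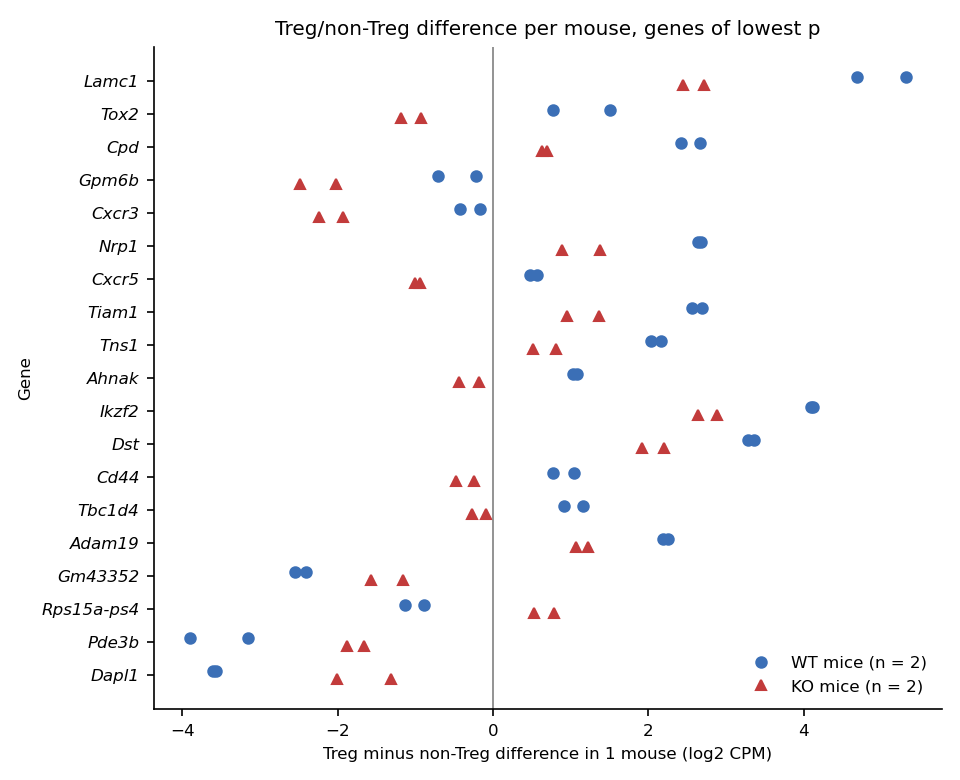
Difference in log2 CPM between FoxP3+CD25+ and FoxP3-CD25- cells (horizontal axis) within each WT mouse (blue circles) and KO mouse (red triangles) for the 15 genes of lowest p among those called lower and the 4 called higher. The KO triangles lie left of the WT circles for the 15 genes and right of them for the 4, and for Ahnak, Cd44, Cxcr5, Tox2 and Tbc1d4 among the 15 they lie on the other side of 0.

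TNF-family ligands and early response genes followed with fewer calls. Tnfsf11, which encodes RANKL, was 23.1 and 17.8 CPM in non-Treg cells of WT1 and WT2, 53.8 and 41.3 CPM in those of KO1 and KO2, 56.9 and 43.5 CPM in Tregs of WT1 and WT2 and 45.0 and 43.2 CPM in Tregs of KO1 and KO2. Tregs of all 4 mice were at like levels, and non-Treg cells of KO reached those levels (-1.39 ± 0.18 SE, adjusted p = 0.0193). Tnfsf8, the CD30 ligand gene, was instead 176 and 139 CPM in non-Treg cells of WT1 and WT2, 130.4 and 175 CPM in those of KO1 and KO2, 189 and 144 CPM in Tregs of WT1 and WT2 and 68.0 and 103 CPM in Tregs of KO1 and KO2, so that its non-Treg libraries overlapped and its KO Treg libraries were the lower ones (-0.92 ± 0.13 SE, adjusted p = 0.0239). They were the 2 called, both lower, of 28 inhibitory and costimulatory receptors and ligands (median -0.246), beside 0.454% of all genes called lower. Egr2, an immediate early factor that restrains T-cell activation, gave -1.03 ± 0.17 (SE), adjusted p = 0.0406 and was the 1 called of 29 early response genes of the T-cell receptor (median 0.020). DESeq2 and limma voom each called 0 of the 29. Irf4, a factor induced by receptor signalling, gave -0.78 ± 0.15 (SE), adjusted p = 0.0721.

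The other genes of lowest p belonged to none of the lists, and their values follow gene by gene. Lamc1, a laminin chain, was 2.05 and 1.44 CPM in non-Treg cells of WT1 and WT2, 7.76 and 5.67 CPM in those of KO1 and KO2, 91.1 and 43.1 CPM in Tregs of WT1 and WT2 and 43.3 and 38.7 CPM in Tregs of KO1 and KO2, so that its difference was 5.32 and 4.69 in WT and 2.45 and 2.72 in KO (-2.63 ± 0.29 SE, adjusted p = 0.0149). It had the most negative value among the 15 genes of lowest p, with 1.44 to 7.76 CPM in non-Treg cells. Tiam1, an activator of the small GTPase Rac1, was 72.1 and 50.6 CPM in non-Treg cells of WT1 and WT2, 95.9 and 134 CPM in those of KO1 and KO2, 425 and 327 CPM in Tregs of WT1 and WT2 and 247 and 259 CPM in Tregs of KO1 and KO2. KO was above WT in non-Treg cells and below it in Tregs without overlap, and the value was -1.47 ± 0.16 (SE), adjusted p = 0.0149.

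Dst, a linker of the cytoskeleton, gave -1.27 ± 0.15 (SE), adjusted p = 0.0149, Tns1, which ties integrins to actin, -1.44 ± 0.17 (SE), adjusted p = 0.0160, and Adam19, a membrane metalloprotease, -1.08 ± 0.13 (SE), adjusted p = 0.0149. Cpd, a carboxypeptidase of the secretory pathway, had per-mouse differences of 2.66 and 2.42 in WT and 0.63 and 0.70 in KO (-1.93 ± 0.22 SE, adjusted p = 0.0149). Tbc1d4, a regulator of glucose transporter traffic, was 156 and 122 CPM in non-Treg cells of WT1 and WT2, 206 and 240.1 CPM in those of KO1 and KO2, 346 and 229 CPM in Tregs of WT1 and WT2 and 193 and 199 CPM in Tregs of KO1 and KO2, and its difference of 1.15 and 0.91 in WT and -0.090 and -0.27 in KO crossed 0 (-1.21 ± 0.14 SE, adjusted p = 0.0149).

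Promoter sequence was compared for motifs of the forkhead factors, FoxP3 among them, and of LEF/TCF factors. RefSeq promoter windows of the 250 bases before a start (GRCm38.p6) were found for 48 of the 66 genes. The forkhead letters were TGTTTAC or TGTTTGC and the LEF/TCF letters CTTTGAA or, as other forms, CTTTGAT or CTTTGTT, on either strand, and CTTTGTT and TGTTTAC can share letters. A forkhead word stood in 3 of the 48 genes (6.25%), against 6.38% of 9127 genes tested with a window and 7.29% of all 32851 windows. A LEF/TCF word stood in 8 of 48 (16.7%), against 10.3% and 12%. No gene among the 48 held both. Windows of 3 genes are shown, chosen after their values were seen: Tiam1 as a called gene with a LEF/TCF word, Dapl1 as the gene called higher with a forkhead word and Cd44 as a gene with neither. Capitals mark a match, which in Tiam1 and Dapl1 is the word read on the other strand, and a match of letters is not a site.
Tiam1, first of its windows (chr16:89974700-89974949, minus strand): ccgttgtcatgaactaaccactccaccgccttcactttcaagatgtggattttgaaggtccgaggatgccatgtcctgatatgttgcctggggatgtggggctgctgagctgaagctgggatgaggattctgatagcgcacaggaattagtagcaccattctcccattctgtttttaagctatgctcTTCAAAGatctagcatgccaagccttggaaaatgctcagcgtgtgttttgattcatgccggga
Dapl1 (chr2:59484403-59484652, plus strand): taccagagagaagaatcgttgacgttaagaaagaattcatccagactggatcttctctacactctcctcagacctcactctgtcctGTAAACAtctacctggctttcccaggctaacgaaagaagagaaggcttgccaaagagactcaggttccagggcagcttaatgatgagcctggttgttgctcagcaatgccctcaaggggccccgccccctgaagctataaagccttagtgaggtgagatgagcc
Cd44 (chr2:102901666-102901915, minus strand): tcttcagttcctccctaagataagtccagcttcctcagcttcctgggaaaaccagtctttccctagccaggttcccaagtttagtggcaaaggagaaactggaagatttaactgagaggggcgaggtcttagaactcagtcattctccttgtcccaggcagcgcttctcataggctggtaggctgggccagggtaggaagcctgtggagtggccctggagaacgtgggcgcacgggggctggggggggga
In Tiam1 the word lies 63 to 57 bases before the start, and in Dapl1 164 to 158 bases before it.

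Growth, calcium and signalling genes gave scattered calls. Mki67, a nuclear protein of dividing cells, was 25.3 and 12.7 CPM in non-Treg cells of WT1 and WT2, 85.7 and 43.9 CPM in those of KO1 and KO2, 47.2 and 14.8 CPM in Tregs of WT1 and WT2 and 45.6 and 15.3 CPM in Tregs of KO1 and KO2. Mouse 1 of each genotype was the higher one in each population. Within each mouse Tregs held more than non-Treg cells in WT, by little in WT2, and less in KO (-1.80 ± 0.28 SE, adjusted p = 0.0337). The per-mouse differences were 0.90 and 0.22 in WT and -0.91 and -1.51 in KO. Leaving out 1 mouse moved the Mki67 value between -2.12 and -1.38. E2f2, a factor of the G1 to S step, had per-mouse differences of 1.01 and 0.82 in WT and -0.18 and -0.53 in KO (-1.28 ± 0.18 SE, adjusted p = 0.0255). Mki67 and E2f2 were the 2 calls among 33 cell-cycle genes, whose median was -0.116, beside 0.454% of all genes called lower. Top2a, another gene of dividing cells, gave -1.29 ± 0.32 (SE), adjusted p = 0.194, from -1.63 without KO1 or WT2 to -0.77 without WT1, and Cdk6 gave -0.80 ± 0.13 (SE), adjusted p = 0.0507.

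Atp2b4, a plasma-membrane calcium pump, gave -1.93 ± 0.29 (SE), adjusted p = 0.0284, and with P2rx7 made 2 calls of 26 calcium channel and store-operated entry genes, 24 of which were below 0 (median -0.327). Over all genes 0.454% were called lower and 6812 of 13661 were below 0. Bmp7, a TGF-beta family ligand, was 15.9 and 14.4 CPM in non-Treg cells of WT1 and WT2, 48.2 and 40.7 CPM in those of KO1 and KO2, 43.0 and 41.7 CPM in Tregs of WT1 and WT2 and 58.2 and 52.7 CPM in Tregs of KO1 and KO2 (-1.16 ± 0.17 SE, adjusted p = 0.0255), and with Nrp1 made 2 calls of 27 TGF-beta pathway genes (median -0.196). Id3, an inhibitor of E proteins, gave -0.79 ± 0.18 (SE), adjusted p = 0.154 without passing. Cybb, a subunit of the phagocyte oxidase that stands in the myeloid marker list, was 23.5 and 13.5 CPM in non-Treg cells of WT1 and WT2, 19.2 and 38.5 CPM in those of KO1 and KO2, 99.1 and 47.7 CPM in Tregs of WT1 and WT2 and 30.9 and 39.5 CPM in Tregs of KO1 and KO2 (-1.63 ± 0.23 SE, adjusted p = 0.0255). It was the 1 called of the 7 myeloid markers tested, and the part that other cells had in it was not tested.

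None of 25 IL-2, gamma-chain and STAT5 genes, 25 helper cytokine and receptor genes, 18 cytotoxic genes, 36 T-cell receptor signalling genes, 31 chromatin genes, 28 BCL2 family and apoptosis genes, 39 interferon-stimulated genes, 28 glycolysis genes, 28 sterol and fatty acid genes or 19 heat-shock and dissociation stress genes was called in edgeR's quasi-likelihood test, nor by DESeq2 or limma voom. Of these 273 genes 41 had an unadjusted p under 0.05 in the edgeR test, against 1124 of all 13661 genes tested. The medians of the lists ran from -0.311 to 0.284. Il10 was 4.10 and 2.47 CPM in non-Treg cells of WT1 and WT2, 2.48 and 4.88 CPM in those of KO1 and KO2, 23.5 and 7.79 CPM in Tregs of WT1 and WT2 and 13.5 and 7.37 CPM in Tregs of KO1 and KO2 (-0.80 ± 0.58 SE, adjusted p = 0.777), and Ifng gave -1.30 ± 0.36 (SE), adjusted p = 0.257, which ran from -1.82 without WT1 to -0.85 without WT2. Their per-mouse differences overlapped for Il10 and did not for Ifng. Of the Ikaros and Kruppel-like factors, 1 of 29 was called, which was Ikzf2 (median -0.162), beside 0.454% of all genes called lower.

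**Figure D3:**
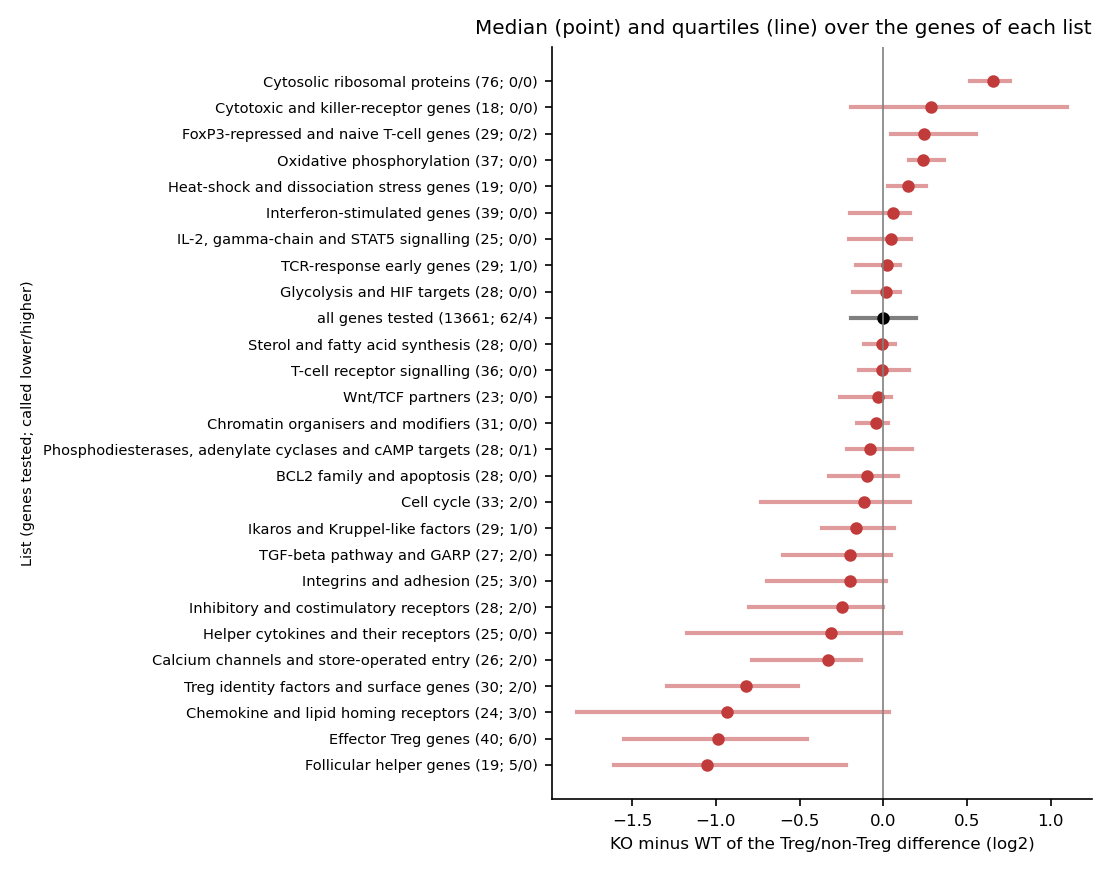
KO minus WT of the Treg/non-Treg difference (log2, horizontal axis) for the genes of each list, with the point at the median and the line over the quartiles. Black is all 13661 genes, and the numbers beside each name are genes tested and genes called lower and higher. Follicular helper, effector Treg, chemokine receptor and Treg identity genes have the lowest medians, and ribosomal protein genes the highest at 0.656.

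Ribosomal protein and long genes differed most between the populations in mouse WT1. All 76 cytosolic ribosomal protein genes had a value above 0 and none was called in edgeR's quasi-likelihood test, by DESeq2 or by limma voom. Their median was 0.656. In the edgeR test 16 of the 76 had an unadjusted p under 0.05, against 1124 of all 13661 genes tested. Their median Treg/non-Treg difference was -1.06 in WT1, 0.136 in WT2, 0.180 in KO1 and 0.205 in KO2, so WT1 stood apart from the other 3 mice. In 46 of the 76 genes both KO mice lay above both WT mice, against 17.5% of all genes tested. Their median change from WT to KO was -0.538 in non-Treg cells and 0.105 in Tregs. The 37 oxidative phosphorylation genes had medians of -0.560 in WT1 and of 0.072 to 0.173 in the others, and none was called or had an unadjusted p under 0.05. By exon length, the median difference of WT1 ran from -0.169 in the shortest of 10 equal classes of genes to 0.139 in the longest, while in the other mice the medians of all 10 classes stayed between -0.030 and 0.046. The 62 genes called lower had a median exon length of 6670 bases, against 3950 over all genes tested. How far these differences of WT1 enter the calls was not tested gene by gene. With an offset for exon length in each library all 66 genes were still called, among 95 in all.

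Among the genes called lower, the median change between the genotypes was larger in size in non-Treg cells than in Tregs. KO was not tested against WT within either population. From WT to KO, 61 of the 62 were higher in non-Treg cells, 58 were lower in Tregs and 57 were both. These are changes of means over 2 libraries per genotype, and the libraries of single mice could overlap. Ahnak was 1346 and 781 CPM in Tregs of WT1 and WT2 and 836 and 807 CPM in those of KO1 and KO2. Ccr4 too was lower in Tregs of WT2 than of both KO mice, while Cxcr3 and Tiam1 did not overlap. The change was larger in size in non-Treg cells for 52 of 62 (83.9%), against 51.9% of all genes tested. The median change was 0.995 in non-Treg cells and -0.437 in Tregs. Since these genes were chosen by the same contrast, these counts describe them and were not tested. The exceptions included Tnfsf8, which had a change of -0.054 in non-Treg cells, and Lrrn3, a leucine-rich repeat membrane protein, chosen after its values were seen, which was higher in KO in both populations. Lrrn3 was 4.84 and 1.85 CPM in non-Treg cells of WT1 and WT2, 26.3 and 19.3 CPM in those of KO1 and KO2, 9.55 and 3.19 CPM in Tregs of WT1 and WT2 and 12.1 and 10.3 CPM in Tregs of KO1 and KO2 (-1.93 ± 0.31 SE, adjusted p = 0.0408).

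**Figure D4:**
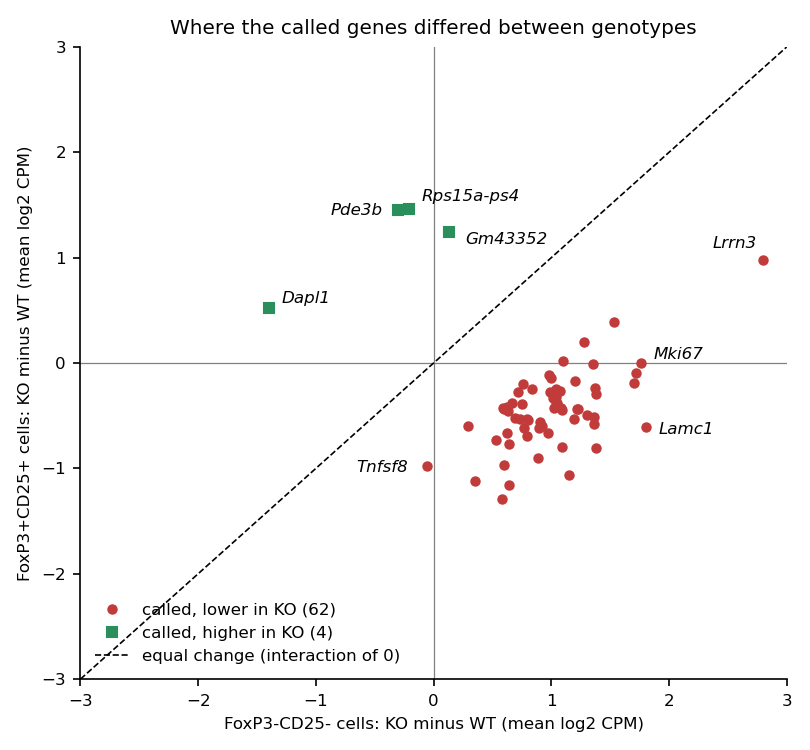
Change from WT to KO in mean log2 CPM of the 66 called genes in FoxP3-CD25- cells (horizontal axis) and in FoxP3+CD25+ cells (vertical axis). The 62 genes called lower (red circles) sit mainly right of 0 and below 0, and 3 of the 4 called higher (green squares) sit near 0 on the horizontal axis and above 1 on the vertical axis.

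The 4 genes called higher had a median change of 1.35 in Tregs and of -0.257 in non-Treg cells. Pde3b differed mainly on the Treg side and Dapl1 differed mainly on the non-Treg side. The 5 genes with a difference in KO only were Cxcr3, Gpm6b, Itgb1, Tnfsf8 and Arhgap26, and the 1 with a wider one was Rap1gap2, the last of each group being named for its class after its values were seen. Rap1gap2, a brake on the small GTPase Rap1, was 13.2 and 8.03 CPM in non-Treg cells of WT1 and WT2, 32.0 and 37.1 CPM in those of KO1 and KO2, 6.84 and 4.37 CPM in Tregs of WT1 and WT2 and 5.51 and 4.74 CPM in Tregs of KO1 and KO2 (-1.84 ± 0.30 SE, adjusted p = 0.0420). Arhgap26, a GTPase-activating protein, had per-mouse differences of 0.20 and 0.016 in WT and -0.83 and -1.13 in KO (-1.10 ± 0.17 SE, adjusted p = 0.0354).

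**Figure D5:**
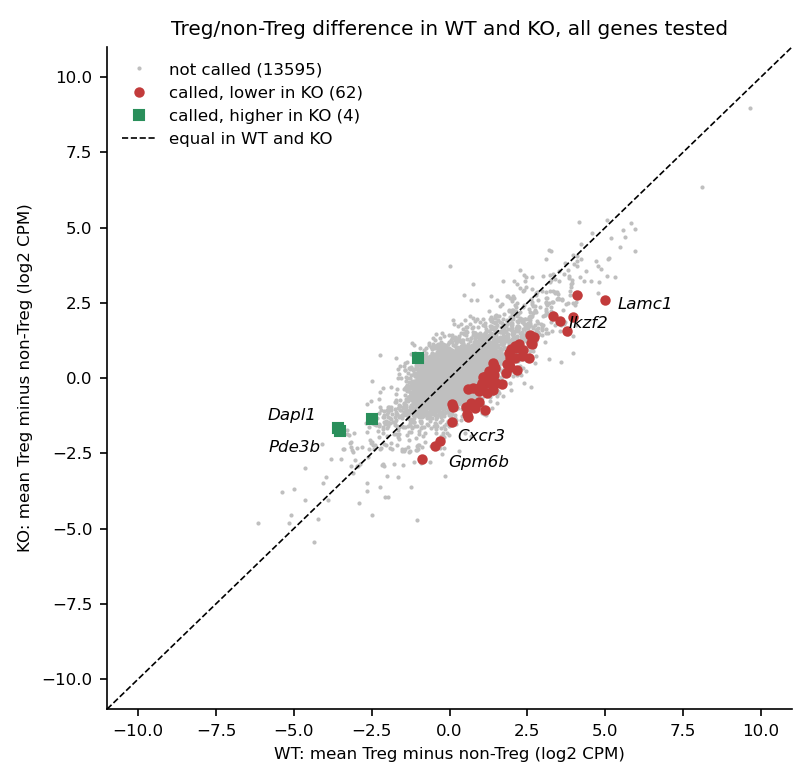
Mean Treg minus non-Treg difference in log2 CPM in WT (horizontal axis) and in KO (vertical axis) for the 13661 genes tested, with the dashed line at equality. The 62 genes called lower (red) lie below the line, most of them right of 0, and the 4 called higher (green) lie above it and left of 0.

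The genes with the largest Treg/non-Treg differences were looked at as sets. Averaged over the genotypes, 1589 genes (11.6%) were higher in Tregs and 1095 (8.02%) lower at an adjusted p under 0.05 in edgeR's quasi-likelihood test. The 100 genes with the largest average rise in Tregs had a median difference of 3.66 in WT1 and 3.76 in WT2, and of 3.20 in KO1 and 3.09 in KO2. Of these, 72 had a value below 0 in the contrast of KO with WT, 2 were called lower and 0 higher, and the median was -0.713. The 100 genes with the largest average fall had medians of -2.58 and -2.61 in WT and of -2.32 and -2.68 in KO, which overlapped, with 59 values above 0 and 2 called higher. The choice of these genes used the mean over genotypes, which fixes the sign of each median, so the medians describe only how far apart the mice lay.

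The loci behind the deletion, the Cre and the reporter were looked at by position. Within 500 kb of Foxp3 none of 29 genes tested was called, near Satb1 none of 10, and near Zbtb7b, which encodes ThPOK, none of 38, in edgeR's quasi-likelihood test. The lowest adjusted p near these loci were 0.303, 0.102 and 0.654, with 3, 4 and 0 genes at an unadjusted p under 0.05 and 0 called by DESeq2 or limma voom. Of all 13661 genes tested 1124 had an unadjusted p under 0.05 in the edgeR test. The genes near Satb1 had a median of 0.833, against 0.000714 over all genes tested, and those near Foxp3 and Zbtb7b -0.033 and 0.025. Near Foxp3 the level of Cacna1f was not alike in the genotypes, which does not describe the whole locus. Ccdc22, also looked at, was 51.1 and 43.5 CPM in Tregs of WT1 and WT2 and 51.3 and 51.5 CPM in those of KO1 and KO2. In non-Treg cells Ccdc22 was at 0.412 to 2.15 CPM. Cacna1f (chrX:7607083-7635196), a calcium channel gene beside Foxp3, had 0 counts in all 4 WT libraries. In KO it had 73 and 92 counts in the Treg libraries of KO1 and KO2, 11.2 and 12.1 CPM, and 4 and 5 counts in the non-Treg libraries, 0.660 and 0.659 CPM. Since both WT populations were at 0, no fold is given. Cacna1f was chosen after its values were seen, and the cause was not tested.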

How the data were processed

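The authors aligned short reads of unstranded NEBNext Ultra libraries to mm10 with HISAT2 (version 2.1.0), and HTSeq gave the reads of each gene (version 0.11.1 in the submitters' processing notes). The strand setting and annotation were not given in the sources used here. The deposited files hold raw read counts by gene symbol, neither normalized nor filtered. HTSeq's tallies of unassigned reads were kept out of library sizes, which left 26.0% to 28.5% of reads on genes.

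The 8 libraries were fitted with edgeR (version 4.0.16, R version 4.3.3) after filterByExpr (minimum count 10) and TMM scaling. The bias-adjusted quasi-likelihood fit had 6 coefficients: a term for each of the 4 mice, the Treg effect and its interaction with genotype. Tests were two-sided, with Benjamini-Hochberg adjustment over 13661 genes at 0.05. CPM are TMM-scaled and log2 CPM use a prior count of 2. SE is the fold change divided by the root of F. The script was tested on simulated counts. Positions are from GENCODE M21.

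Pairs of libraries sharing genotype and number were taken to come from 1 mouse, as their labels imply. Their deviations from the group means correlated at 0.312 in WT and 0.429 in KO over genes. Genes and lists were chosen with earlier results of these data known. The named genes were the 15 of lowest p among those called lower, all 4 called higher, a set of anchor genes of Treg and naive T cells, and up to 4 genes of lowest p per list. Alternatives used limma (version 3.58.1), DESeq2 (version 1.42.0) and edgeR's other tests, filters, scalings, blocks and sets of libraries. Figures used matplotlib (version 3.10.9).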

Additional observations from a re-analysis of the deposited data

Results flagged for a closer look

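The Treg/non-Treg difference itself differed between WT and KO, by the interaction term of edgeR's quasi-likelihood test, for each of the 35 genes called and named here. The values are KO minus WT of that difference on the log2 scale. It was lower in KO for Lamc1 (-2.63), Tox2 (-2.24), Ccr4 (-1.97), Cpd (-1.93), Atp2b4 (-1.93), Lrrn3 (-1.93), Gpm6b (-1.85), Rap1gap2 (-1.84), Cxcr3 (-1.81), Mki67 (-1.80), Alcam (-1.70), Cybb (-1.63), Itgb1 (-1.54), Nrp1 (-1.53), Maf (-1.51), Cxcr5 (-1.49), Tiam1 (-1.47), Tns1 (-1.44), Tnfsf11 (-1.39), Ahnak (-1.36), Ikzf2 (-1.34), E2f2 (-1.28), Cd44 (-1.27), Dst (-1.27), Tbc1d4 (-1.21), Bmp7 (-1.16), Arhgap26 (-1.10), Adam19 (-1.08), P2rx7 (-1.05), Egr2 (-1.03) and Tnfsf8 (-0.92). It was higher in KO for Dapl1 (1.92), Pde3b (1.75), Rps15a-ps4 (1.69) and Gm43352 (1.14). In each of these genes both KO mice lay on the same side of both WT mice, as 20.5% of all genes tested did below and 17.5% above. The genes were called on these same differences, so this only describes them.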

How the results depend on the processing

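The number of genes called, 66 with 62 lower and 4 higher in KO, changed most with the mice. Leaving out 1 mouse at a time gave 0 to 2347 calls, 0 to 1251 of them higher and 0 to 1096 lower, the lone mouse being taken to vary like the pair of the other genotype. A replicate block by mouse is in the fit, and with no replicate block there were 0 calls, 0 higher and 0 lower, with 64 of the 66 genes at an unadjusted p under 0.05. With the replicate number as a block across genotypes there were also 0 calls in either direction, and 843 genes at an unadjusted p under 0.05. Without KO2 475 genes were at an unadjusted p under 0.05. Without the low-count filter there were 0 calls in either direction and 1209 genes at an unadjusted p under 0.05. All 10 libraries gave 149 calls (24 higher, 125 lower), the likelihood ratio test 282 (40 higher, 242 lower) and an adjusted p of 0.10 gave 114 (12 higher, 102 lower). The exon-length offset, added after the data were seen, gave 11 higher. Counts with CPM above 1 as the filter, RLE factors, library size alone, the legacy quasi-likelihood fit, DESeq2 or limma voom were 60 to 74. Leaving out Xist, Tsix and the Y-linked genes gave 66. Other X-linked genes, with Cxcr3, Gpm6b and Cybb among those called, stayed in that fit. The 66 genes kept their sign in all 18 alternatives.

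Among uncalled genes the sign turned when 1 mouse was left out, and the cause was not tested. The values then ran from -0.125 (without KO2) to 0.403 for Ikzf4, -4.66 to 3.03 (without KO1) for Lrrc32, -0.071 to 0.027 (without WT1) for Tcf7, -1.58 to 0.275 (without KO2) for Il10, -0.081 (without WT1) to 1.02 for Bst2, -0.0024 (without WT1) to 0.72 for Cd3d and -0.772 (without KO1) to 2.04 for Cd8a, which was -0.566 without WT1. Genes near 0.242 to 0.492 CPM could not be resolved at this depth.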
